A study of Mus musculus with 9 samples.

Results

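The Wnt, Fgf, Bmp, Gdf and Tgfb genes encode, with a few exceptions, secreted signals by which cells of a tissue instruct one another, and they were examined here for BAP1 binding in a B cell precursor cell line. They were taken by symbol: protein-coding genes of the GENCODE M1 annotation named Wnt, Fgf, Bmp or Gdf with a number, or *Tgfb1*, *Tgfb2* or *Tgfb3*, without the receptor and binding protein genes of similar name. This gave 66 genes of the 22367 protein-coding genes, namely 19 Wnt, 22 Fgf, 12 Bmp, 10 Gdf and 3 Tgfb genes. The symbol rule also took in *Bmp2k*, which encodes a cytoplasmic kinase named for its induction by BMP2, and *Bmp1*, which encodes a secreted protease that matures procollagen. It also took in *Fgf11*, *Fgf12*, *Fgf13* and *Fgf14*, which encode FGF homologous factors that stay inside the cell. All 66 are called ligand genes below, and 60 remain without these exceptions.

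BAP1 binding was mapped by ChIP-Seq in Ba/F3 cells, a murine IL-3-dependent B cell lineage precursor line grown with WEHI conditioned media as its source of IL-3. Wild type Ba/F3 cells were immunoprecipitated with an anti-BAP1 antibody, and Ba/F3 cells that stably expressed triple-FLAG-tagged murine BAP1 under puromycin selection with an anti-FLAG antibody. Each immunoprecipitation was 1 sample, and the deposited file holds 1 list of 13164 peaks named for both antibodies together, each 200 bp wide, with no score, height or read count. Input DNA was sequenced as the control in 4 samples, and those samples and the 3 H2AK119ub samples of the series were not analysed here.

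BAP1 is a deubiquitinase that removes the monoubiquitin placed on histone H2A by Polycomb repressive complex 1, a mark associated with gene silencing. Wnt proteins bind Frizzled receptors and LRP co-receptors and stabilize beta-catenin, FGFs bind receptor tyrosine kinases that act through RAS and the MAP kinases, and BMPs, GDFs and TGF-betas bind pairs of serine-threonine kinase receptors that phosphorylate SMAD proteins. The ligand genes are textbook examples of developmental genes, which many differentiated cells keep silent under Polycomb at CpG-rich promoters, whereas the genes of the intracellular relay are used by most cells.

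A gene was counted as bound when the middle of a peak lay within 1 kb of any of its transcription start sites (TSSs), that is, when it had a gene-proximal peak. Among all protein-coding genes 39.6% had a gene-proximal peak, 8850 of 22367 (95% Wilson interval 38.9 to 40.2%). Of the ligand genes 5 of 66 did, a share of 7.58% (3.28 to 16.5%). These were *Tgfb1*, *Gdf11*, *Fgf2*, *Gdf9* and *Bmp2k*. Since *Bmp2k* is not a ligand gene, 4 of 65 genes (6.15%, 2.42 to 14.8%) were bound without it, and 4 of 64 (6.25%, 2.46 to 15.0%) without both *Bmp2k* and *Bmp1*. Without the intracellular Fgf genes as well, 4 of 60 were bound (6.67%, 2.62 to 15.9%). The intervals cover counting error only. With 1 pooled list and no replicate, no test of any difference between shares was made, and the shares below are descriptions of this list.

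The families ranged from none bound to 1 in every 3. No Wnt gene had a gene-proximal peak, 0 of 19, with an upper limit of 16.8%. Of the Fgf genes 1 of 22 did (4.55%, 0.807 to 21.8%), and of the Bmp genes 1 of 12 (8.33%, 1.49 to 35.4%), which was *Bmp2k*. Of the Gdf genes 2 of 10 had one (20.0%, 5.67 to 51.0%) and of the Tgfb genes 1 of 3 (33.3%, 6.15 to 79.2%). The intervals of all 5 families overlap one another, and those of the Gdf and Tgfb genes also hold the share of all protein-coding genes. Counted by TSS, 6 of the 139 TSSs of these genes (4.32%) lay within 1 kb of the middle of a peak, beside 35.7% of the 70051 TSSs of all protein-coding genes. Of the 6, 2 were in *Tgfb1* and none was among the 40 TSSs of the Wnt genes.

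**Figure D1:**
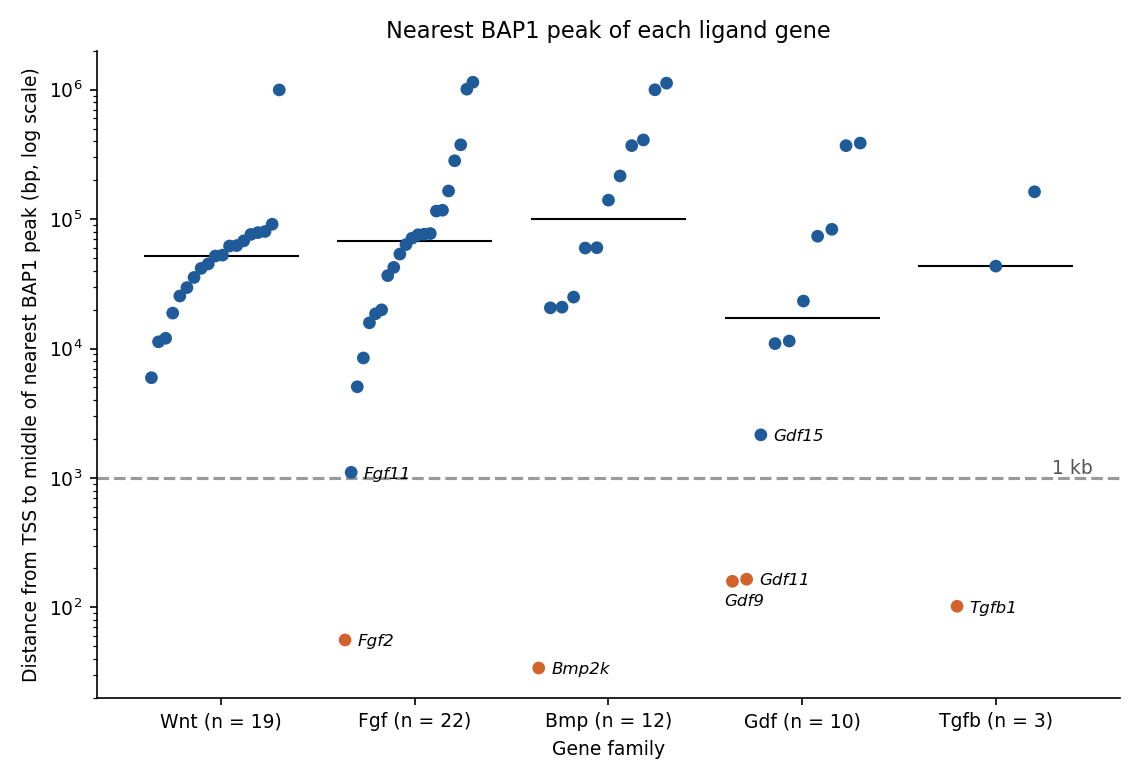
Distance in bp (log axis) from the nearest TSS of each of the 66 genes to the middle of the nearest BAP1 peak, with 1 point per gene by family, a bar at each family's median and the 1 kb limit dashed. Orange points are the 5 genes with a gene-proximal peak, which lay at 34 to 165 bp, and the 61 other genes lay at 1105 bp and beyond.

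The sequence under each of the 5 peaks nearest to these TSSs is shown because it is the DNA at which BAP1 was found, read from mm9 and limited to bases outside annotated exons. It is written along the strand of the ligand gene, with matches to the GC box (GGGCGG or CCGCCC), the CCAAT box (CCAAT or ATTGG) and the TATA box (TATAAA or TTTATA) in capitals. The intervals are chr7:26471820-26472019 for *Tgfb1*, chr10:128328840-128329039 on the minus strand for *Gdf11*, chr3:37211369-37211440 for *Fgf2*, chr11:53244585-53244784 for *Gdf9* and chr5:97426575-97426707 for *Bmp2k*.
Tgfb1: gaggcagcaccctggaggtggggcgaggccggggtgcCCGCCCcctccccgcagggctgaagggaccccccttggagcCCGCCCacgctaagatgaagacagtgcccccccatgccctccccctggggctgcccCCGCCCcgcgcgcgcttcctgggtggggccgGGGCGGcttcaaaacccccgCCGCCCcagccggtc
Gdf11: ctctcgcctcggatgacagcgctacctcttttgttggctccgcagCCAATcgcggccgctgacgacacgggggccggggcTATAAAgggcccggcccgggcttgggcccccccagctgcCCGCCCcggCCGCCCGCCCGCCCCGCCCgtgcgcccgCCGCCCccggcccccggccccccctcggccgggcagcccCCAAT
Fgf2: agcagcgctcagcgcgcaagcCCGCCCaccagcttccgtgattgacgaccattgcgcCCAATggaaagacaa
Gdf9: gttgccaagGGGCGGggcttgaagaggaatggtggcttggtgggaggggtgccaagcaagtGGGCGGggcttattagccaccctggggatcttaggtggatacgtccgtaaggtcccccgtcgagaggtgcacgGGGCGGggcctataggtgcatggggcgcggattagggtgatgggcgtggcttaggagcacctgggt
Bmp2k: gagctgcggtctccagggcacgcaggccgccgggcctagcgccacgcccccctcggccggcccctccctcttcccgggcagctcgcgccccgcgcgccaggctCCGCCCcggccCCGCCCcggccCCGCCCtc

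GC content over the whole 200 bp of these peaks was 77.5% at *Tgfb1*, 79.5% at *Gdf11*, 69.0% at *Fgf2*, 64.0% at *Gdf9* and 85.0% at *Bmp2k*. All 5 stretches hold GC boxes, the letters recognised by SP1 and its relatives. There were 6 at *Gdf11*, several of them overlapping, 5 at *Tgfb1*, 3 each at *Gdf9* and *Bmp2k*, and 1 at *Fgf2*.

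*Tgfb1* and *Gdf11* were the ligand genes with a peak at the TSS of a coding transcript. *Tgfb1* (ENSMUSG00000002603.9) encodes the TGF-beta best known for restraining lymphocyte proliferation and inducing regulatory T cells. Its first peak was centred 102 bp upstream of the coding TSS at chr7:26472021 and ended just before it. A second peak, chr7:26474393-26474592, lay inside the gene, 546 bp downstream of the TSS of Tgfb1-003, a transcript annotated as subject to nonsense-mediated decay, so that 2 of the 3 *Tgfb1* TSSs were within 1 kb of a peak. Within 50 kb of its TSSs lay 7 peaks. *Gdf11* (ENSMUSG00000025352.6) encodes a TGF-beta superfamily ligand that patterns the axial skeleton. Its peak was centred 165 bp upstream of its TSS at chr10:128328774, with no other gene's TSS within 1 kb, and 4 peaks lay within 50 kb. No peak was within 1 kb of another coding gene at either of these ligand genes.

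At *Fgf2* and *Gdf9* the nearest peak was shared with a neighbour. *Fgf2* (ENSMUSG00000037225.6), basic fibroblast growth factor, had a peak at 1 of its 6 TSSs, centred 56 bp upstream of the processed transcript Fgf2-006 at chr3:37211441. The TSS of the nearest coding *Fgf2* transcript lay at chr3:37247268, 35883 bp from that peak. The same peak, chr3:37211286-37211485, was centred 17 bp from a TSS of *Cetn4*, a centrin gene, and 91 bp from one of *Bbs12*, a ciliopathy gene, and 128 of its 200 bases fall in exons of the 3 genes.

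*Gdf9* (ENSMUSG00000018238.6), an oocyte growth factor, had its nearest peak 159 bp downstream of the processed transcript Gdf9-003 at chr11:53244525, and a second peak, chr11:53243935-53244134, 491 bp upstream of it. The coding *Gdf9* TSS at chr11:53246801 was 2117 bp from the nearer peak. *Uqcrq*, which encodes a subunit of mitochondrial complex III, starts on the opposite strand with a TSS 351 bp from that peak. Another *Uqcrq* TSS, at chr11:53243936, lies inside the second peak. At *Fgf2* and *Gdf9* the nearest peak thus cannot be assigned to one gene from its position. By TSSs of coding transcripts alone 3 of the 66 genes were bound, *Tgfb1*, *Gdf11* and *Bmp2k*. Counted the same way, 39.3% of protein-coding genes were bound (8777 of 22359).

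*Bmp2k* (ENSMUSG00000034663.7) had a pair of peaks, chr5:97426363-97426562 and chr5:97426575-97426774, centred 246 and 34 bp upstream of its TSS at chr5:97426708, and the nearer one covered the TSS. Of the 5 genes it had the nearest peak, and no other gene's TSS lay within 1 kb of that peak. Across all bound protein-coding genes, 2188 of 8850 (24.7%) shared their nearest peak with another coding gene in this way, against 2 of 5 here.

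**Figure D2:**
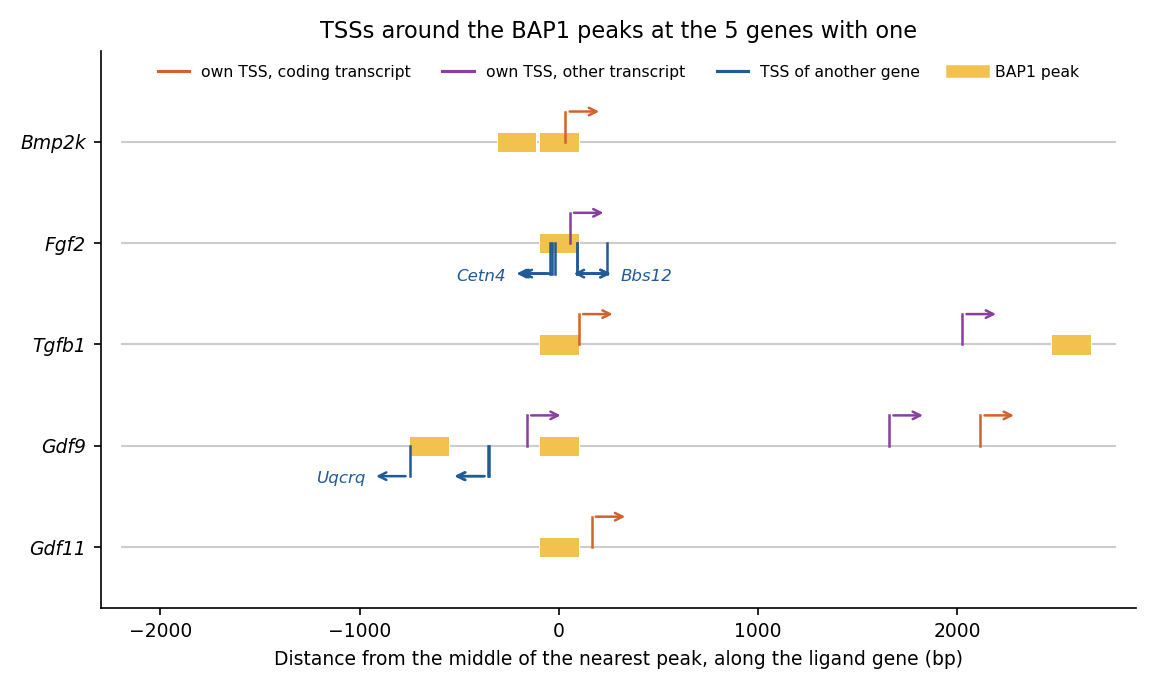
Peaks (yellow boxes, 200 bp) and TSSs around the nearest peak of the 5 bound genes, in bp along each gene's own strand from the middle of that peak. Arrows above the line are TSSs of the gene itself, orange for coding transcripts and purple for others, and blue arrows below the line are TSSs of other coding genes. The coding TSSs of *Bmp2k*, *Tgfb1* and *Gdf11* stand beside a peak, while at *Fgf2* and *Gdf9* the peaks stand among TSSs of *Cetn4*, *Bbs12* and *Uqcrq* and the nearest own TSS is a purple one.

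No gene stood close to the 1 kb limit from within. The bound gene farthest from its peak was *Gdf11* at 165 bp, and the nearest gene outside was *Fgf11* at 1105 bp, with a peak upstream of its coding TSS. *Fgf11* encodes one of the intracellular FGF homologous factors, which bind voltage-gated sodium channels. *Gdf15*, which encodes a stress-induced cytokine, was the other gene with a peak between 1 and 5 kb, at 2154 bp downstream of its TSS and within the gene body. Beyond these came *Fgf8* at 5066 bp, also with the peak inside the gene, *Wnt1* at 5952 bp and *Fgf22* at 8455 bp.

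Of the 66 genes, 23 (34.8%) had their nearest peak at 5 to 50 kb and 36 (54.5%) beyond 50 kb. Over all protein-coding genes these shares were 20.3% and 37.2%. The median distance was 56.7 kb (quartiles 19.1 and 109 kb), against 16.6 kb over all protein-coding genes. The genes without a gene-proximal peak were not especially remote from BAP1 peaks: their median was 62.0 kb over 61 ligand genes and 83.0 kb over the 13517 unbound protein-coding genes. Beyond 100 kb lay 17 ligand genes (25.8%) and 27.3% of all protein-coding genes. Among unbound genes alone, 59.0% of ligand genes and 61.5% of protein-coding genes lay beyond 50 kb. Beyond 100 kb these shares were 27.9% and 45.2%.

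For most of these genes the nearest peak sat at the promoter of another gene. This held for 46 of the 61 unbound ligand genes (75.4%), beside 9246 of 13517 unbound protein-coding genes (68.4%). *Fgf18*, a regulator of bone and cartilage growth, lay 15803 bp from its nearest peak, which was centred 3 bp from a TSS of *Npm1*, the nucleophosmin gene. The nearest peak of *Wnt10b*, at 11275 bp, was centred 3 bp from a TSS of *Arf3*, and that of *Wnt4*, at 80260 bp, 29 bp from a TSS of *Cdc42*, both small GTPase genes. The protein-coding gene nearest to each ligand gene had a gene-proximal peak in 26 of 66 cases (39.4%), against 43.1% over all protein-coding genes. Where that neighbour was not itself one of the 66 it was 26 of 55 (47.3%), with no such exclusion made for all genes. Among unbound genes alone, the neighbour was bound for 21 of 61 ligand genes (34.4%) and 3921 of 13517 protein-coding genes (29.0%). By count, the neighbours were thus bound more often than the ligand genes themselves, at shares near those of the neighbours of protein-coding genes in general.

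Few ligand genes had a coding neighbour at their own promoter. A TSS of another coding gene lay within 1 kb of 3 of the 66 genes (4.55%), *Fgf2*, *Gdf9* and the unbound *Fgf20*, against 13.7% of all protein-coding genes. With such genes set aside, 3 of 63 ligand genes were bound (4.76%, 1.63 to 13.1%) and 6511 of 19308 protein-coding genes (33.7%). Peaks in the gene body but beyond 1 kb of its own TSSs were found in 4 ligand genes (6.06%, against 5.09% of all protein-coding genes). These were 3 peaks in *Fgf14*, 2 in *Wnt5b*, and 1 each in *Gdf15* and *Fgf8*, and the *Wnt5b* gene spans the TSS of *Fbxl14*, an F-box protein gene whose own TSS was 454 bp from the *Wnt5b* gene's nearest peak.

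All 19 Wnt genes lay beyond 5 kb from a peak. The nearest was *Wnt1* (5952 bp), a midbrain organizer signal, followed by *Wnt10b* (11275 bp), *Wnt5b* (12003 bp) and *Wnt11* (18787 bp). The median was 51.9 kb, and *Wnt5a*, which signals mainly without beta-catenin, was the farthest at 996269 bp and the 1 Wnt gene beyond 100 kb. Several Wnt genes stand in pairs that share the nearest peak. *Wnt3a* and *Wnt9a*, with TSSs 16176 bp apart, both had theirs at *Arf1*, and *Wnt9b* and *Wnt3*, 24329 bp apart, at *Gosr2*, a Golgi SNARE gene. *Wnt6* and *Wnt10a*, 19624 bp apart, shared a peak with no TSS within 1 kb. *Wnt10b* and *Wnt1*, 17199 bp apart, had different nearest peaks, so the 19 distances are not all independent.

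The Fgf genes had a median of 67.4 kb, and the farthest, *Fgf5*, which ends the hair growth phase, was 1142533 bp from a peak. The genes of the endocrine FGFs, which act on distant organs through Klotho co-receptors, were *Fgf15* at 18567 bp, *Fgf21* at 19913 bp and *Fgf23* at 36595 bp. Those of the other FGF homologous factors were *Fgf14* at 77340 bp, *Fgf13* at 375364 bp and *Fgf12* at 1009616 bp. The endocrine genes thus sat nearer than the family's median and these 3 farther. *Fgf11*, also a homologous factor gene, went the other way at 1105 bp, so the homologous factor genes were not farther as a group. *Fgf3*, *Fgf4* and *Fgf15* form a cluster on chromosome 7 whose nearest peak was the same one, at *Oraov1*.

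The Bmp genes had the largest median distance of the 5 families, 100.0 kb. *Bmp8b* (20639 bp), *Bmp10* (20883 bp), a heart-derived ligand, and *Bmp1* (24983 bp) were the nearest of the unbound ones. *Bmp2* and *Bmp4*, the classical inducers of bone and ventral mesoderm, lay at 409055 and 369780 bp, and *Bmp3*, which restrains bone formation, was the farthest at 1124556 bp. The Gdf genes had the smallest median, 17.4 kb. The farthest was *Gdf10* at 386931 bp, which shared its nearest peak with *Gdf2*, encoding the endothelial ligand BMP9. *Gdf1*, a left-right axis gene known for sharing a messenger RNA with *Lass1*, lay 23280 bp from a peak, and *Lass1* had no gene-proximal peak either. Of the Tgfb genes, *Tgfb2* lay 43337 bp from its nearest peak, at *Rrp15*, and *Tgfb3*, needed for palate fusion, at 162734 bp, so that the 3 isoform genes differed widely.

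Of the 8850 bound protein-coding genes 7766 had a CpG-rich promoter, so the CpG content of the ligand promoters was compared. The CpG ratio is the number of CpG dinucleotides over that expected from base composition, in a window of 500 bp each way around the TSS with the highest ratio, and a promoter was called CpG-rich from 0.6. CpG-rich promoters were found at 42 of 66 ligand genes (63.6%) and 50.2% of all protein-coding genes, with a median ratio of 0.72 against 0.60. By family they were found at 15 of 19 Wnt, 12 of 22 Fgf, 7 of 12 Bmp, 5 of 10 Gdf and 3 of 3 Tgfb genes. Of all CpG-rich protein-coding genes 69.2% had a gene-proximal peak, 7766 of 11230, and of the CpG-rich ligand genes 5 of 42 did (11.9%, 5.19 to 25.0%). At a ratio of 0.8 or more the shares were 2 of 19 (10.5%, 2.94 to 31.4%) and 4125 of 5477 (75.3%).

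The 5 bound genes had ratios of 1.00 (*Bmp2k*), 0.83 (*Gdf11*), 0.79 (*Gdf9*), 0.75 (*Fgf2*, at a coding TSS away from its peak) and 0.70 (*Tgfb1*). Unbound ligand genes reached as high, namely *Bmp2* at 1.08, *Wnt9a* and *Wnt5b* at 1.00, *Fgf9* at 0.96 and *Tgfb2* at 0.93. The ratios of bound and unbound ligand genes therefore overlapped. The 24 ligand genes under 0.6 had no gene-proximal peak, beside 2.99% of protein-coding genes under 0.4 and 27.2% of those from 0.4 to 0.6.

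**Figure D3:**
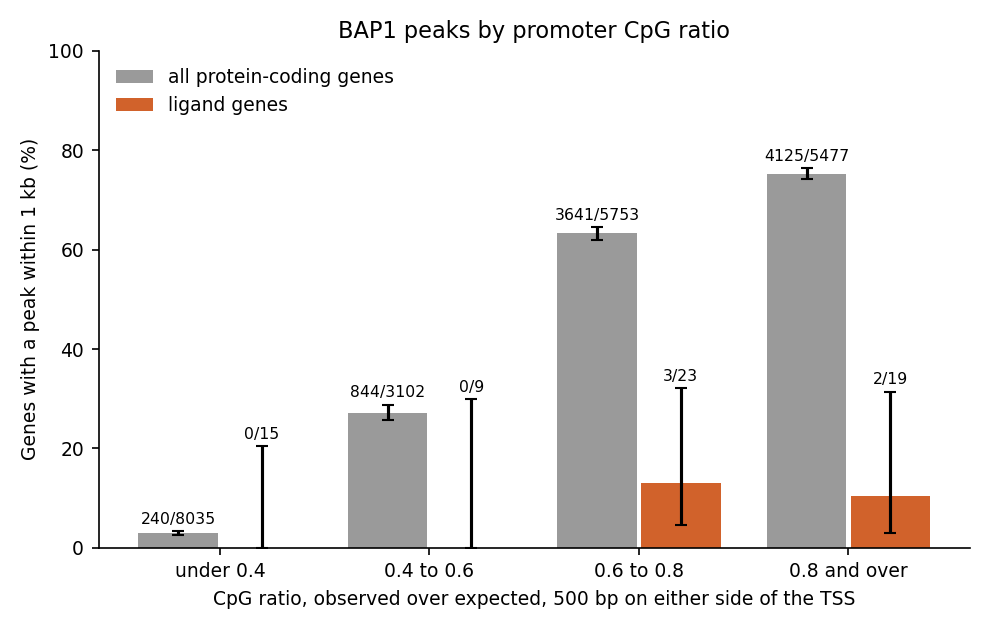
Share in percent of genes with a gene-proximal BAP1 peak in 4 classes of promoter CpG ratio, for all protein-coding genes (grey) and the ligand genes (orange), with 95% Wilson intervals and the counts above the bars. In all protein-coding genes the share rose from 2.99% in the lowest class to 75.3% in the highest, while for the ligand genes it was 0, 0, 13.0 and 10.5%.

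The 200 bases before the first TSS of *Wnt9a*, a ligand of joint formation, and of *Bmp2* are shown as examples of CpG-rich promoters without a peak, at chr11:59120230-59120429 and chr2:133377695-133377894 of mm9, with the same 3 motifs searched and GC boxes in capitals.
Wnt9a: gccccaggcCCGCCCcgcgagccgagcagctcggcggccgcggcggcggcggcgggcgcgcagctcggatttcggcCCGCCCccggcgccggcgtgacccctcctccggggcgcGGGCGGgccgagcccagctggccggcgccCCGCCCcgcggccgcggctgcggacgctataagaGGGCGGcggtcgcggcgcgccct
Bmp2: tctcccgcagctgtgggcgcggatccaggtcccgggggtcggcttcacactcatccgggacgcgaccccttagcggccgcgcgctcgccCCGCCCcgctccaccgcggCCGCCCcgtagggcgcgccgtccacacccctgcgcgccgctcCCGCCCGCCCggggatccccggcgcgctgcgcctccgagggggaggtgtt

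*Wnt9a* holds 5 GC boxes over these bases at a GC content of 86.0%, and *Bmp2* 4 at 79.5%, beside 1 to 6 GC boxes and 64.0 to 85.0% at the bound peaks above. The lengths differ, since boxes at the bound peaks were counted outside exons, over only 72 bases at *Fgf2* and 133 at *Bmp2k*. The GC content there is that of the whole 200 bp peak. From *Wnt9a* and *Bmp2* the nearest peaks were 78660 and 409055 bp away.

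Short motifs of factors that often stand at promoters were searched as plain strings on both strands, with overlapping matches counted. These were the ETS site CCGGAAG, the YY1 site AAGATGGC, the CCAAT box, the GC box, the CRE TGACGTCA, the E-box CACGTG, the NRF1 site GCATGCGC and the TATA box. No motif holds another. In the 5 nearest peaks the GC box was found in 5, the CCAAT box in 2 (*Fgf2* and *Gdf11*) and the TATA box in 1 (*Gdf11*), and the other motifs in none. Over all 10073 gene-proximal peaks the shares were 68.6% for the GC box, 30.0% for the CCAAT box, 2.41% for the TATA box, 20.2% for the ETS site, 8.06% for the E-box, 5.80% for NRF1, 5.08% for YY1 and 3.35% for the CRE.

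Promoters from 250 bp before to 50 bp after the same TSS were then compared within the CpG-rich class. Among the 37 CpG-rich ligand genes without a peak the ETS site was found in 0, against 24.9% of CpG-rich protein-coding genes with a peak and 4.99% of those without. The YY1 site was likewise found in 0 of 37, against 6.97% and 1.53%, and the CRE in 0 of 37, against 4.38% and 2.11%. The GC box was found in 30 of 37 (81.1%), against 74.5% and 71.0%, and the CCAAT box in 14 of 37 (37.8%), against 37.2% and 28.3%. The remaining motifs were in few of the 37, with the TATA box in 3 (8.11%), the E-box in 2 (5.41%) and the NRF1 site in 1 (2.70%), against 4.70, 11.3 and 7.08% of CpG-rich genes with a peak and 6.26, 8.89 and 2.34% of those without. Among all protein-coding promoters the ETS site was present in 11.5%, YY1 in 3.75%, the CRE in 2.39%, the GC box in 47.1%, the CCAAT box in 36.2%, the TATA box in 12.5%, the E-box in 7.79% and NRF1 in 3.41%. The unbound CpG-rich ligand promoters thus held GC and CCAAT boxes at shares like those of bound promoters and none of the ETS, YY1 and CRE strings. A match of letters is not a binding site, and 37 promoters are few for motifs present in under 5% of unbound promoters.

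**Figure D4:**
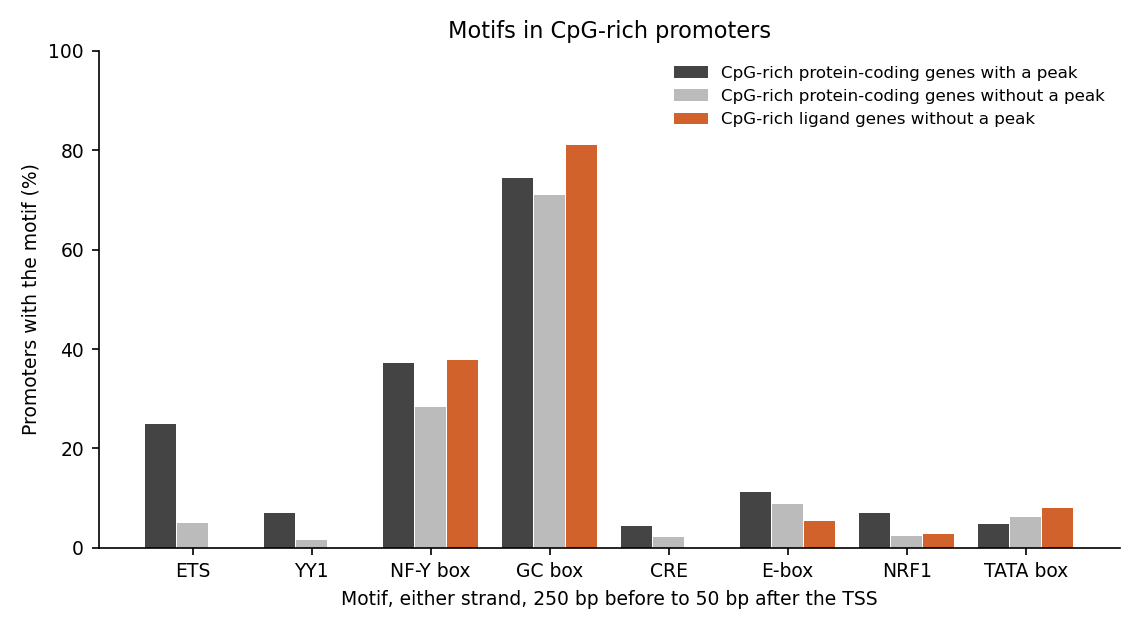
Share in percent of promoters that hold each of 8 motifs on either strand, for CpG-rich protein-coding genes with a gene-proximal peak (dark grey, 7766), those without (light grey, 3464) and CpG-rich ligand genes without (orange, 37); NF-Y box stands for the CCAAT box. The orange bars reach 81.1% for the GC box and 37.8% for the NF-Y box and are at 0 for ETS, YY1 and CRE.

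To place the ligands within their pathways, genes of the same signalling routes were counted from lists of receptors, antagonists, other ligands and intracellular proteins, in which 142 of 143 symbols were found. The shares were low for the lists of ligands, of secreted antagonists and carriers, and of receptors and export proteins. They were higher for the intracellular lists. Of these, the Wnt nuclear effectors stood lowest, at 4 of 12 (33.3%, 13.8 to 60.9%), below the 39.6% of all protein-coding genes. Receptors and the proteins that export ligands were bound in 7 of 38 cases (18.4%, 9.22 to 33.4%), secreted antagonists and carriers in 1 of 29 (3.45%, 0.611 to 17.2%), and other ligands of the TGF-beta superfamily in 1 of 14 (7.14%, 1.27 to 31.5%). Intracellular transducers and nuclear effectors were bound in 45 of 61 (73.8%, 61.6 to 83.2%). The interval of the intracellular genes does not overlap those of the ligands, receptors, antagonists or other ligands. These intervals cover counting error only, and genes counted in 1 peak list are not replicates. The lists were chosen with earlier results of these data known, and the difference was not tested.

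**Figure D5:**
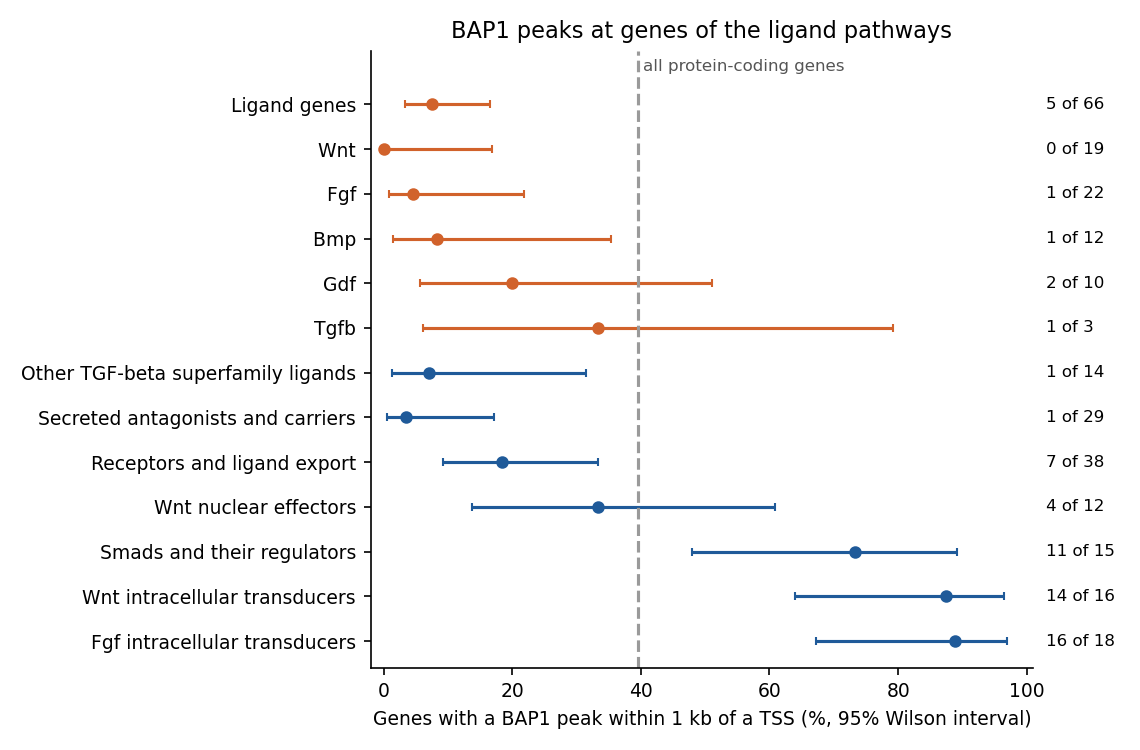
Share in percent of genes with a gene-proximal BAP1 peak, with 95% Wilson intervals and counts at the right, for the ligand genes and their families (orange) and the pathway lists (blue); the dashed line is the share of all protein-coding genes, 39.6%. Ligands, antagonists, receptors and the Wnt nuclear effectors (33.3%) lie to the left of the line. The Smads and their regulators (73.3%) and the intracellular transducers of Wnt and Fgf signals (87.5 and 88.9%) lie to its right.

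Among receptors, the bound Wnt receptor genes were *Fzd2* (nearest peak at 158 bp), *Fzd4* (38 bp, a peak shared with *Tmem135*) and *Lrp6* (22 bp), the co-receptor of beta-catenin signalling, 3 of 17 in that list. Of the Fgf receptor genes 1 of 7 was bound, *Fgfr2* (113 bp, a peak shared with *Ctbp2*). Of the Bmp and Tgfb receptor genes 3 of 14 were bound, *Tgfbr1* (129 bp), the type I receptor for TGF-beta, and the activin receptor genes *Acvr1b* (199 bp) and *Acvr2b* (396 bp). The other TGF-beta receptor genes, *Tgfbr2* (90724 bp) and *Tgfbr3* (14979 bp), had no gene-proximal peak. *Lrp5* (1081 bp) and *Bmpr2* (1246 bp) lay just beyond the limit. Of the antagonists, no Wnt antagonist gene was bound, 0 of 13, and the 1 bound gene was *Fstl3*, a follistatin relative that traps activins, with a peak 275 bp from a processed transcript and 3032 bp from a coding TSS. The other ligand was *Inhbe* (158 bp), an activin subunit gene.

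Inside the cell, 14 of 16 Wnt transducer genes were bound (87.5%, 64.0 to 96.5%), among them *Ctnnb1*, the beta-catenin gene, at 35 bp, and those without were *Apc2* (3262 bp) and *Axin2* (4061 bp), itself a target of Wnt signalling. Of the Fgf transducer genes 16 of 18 were bound (88.9%, 67.2 to 96.9%), and those without were the exchange factor gene *Sos2* (43105 bp) and the adaptor gene *Gab1* (61270 bp). Of the Smads and their regulators 11 of 15 were bound (73.3%, 48.0 to 89.1%), and those without were *Smad1* (104526 bp), *Smad9* (20135 bp), *Tgif2* (21986 bp) and *Zfyve9* (52650 bp). *Smad1* and *Smad9* encode SMADs of the BMP branch, whose other member *Smad5* was bound at 3 bp, as were *Smad2* (147 bp) and *Smad3* (292 bp) of the TGF-beta branch and the shared partner *Smad4* (61 bp). The Wnt nuclear effector genes stood lower, at 4 of 12 (33.3%, 13.8 to 60.9%). The bound ones were the co-repressor genes *Tle1* (140 bp) and *Tle4* (496 bp) and the beta-catenin co-activator genes *Pygo2* (25 bp) and *Bcl9* (66 bp), while the TCF/LEF genes *Lef1*, *Tcf7*, *Tcf7l1* and *Tcf7l2* lay 13427 bp or more from a peak.

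The difference between the pathway roles was also seen among CpG-rich promoters. Of these, 45 of 58 intracellular genes were bound (77.6%, 65.3 to 86.4%), 7 of 34 receptor and export genes (20.6%, 10.3 to 36.8%), 0 of 16 antagonist genes and 0 of 3 other ligand genes, beside the 5 of 42 of the Wnt, Fgf, Bmp, Gdf and Tgfb genes.

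Hox cluster genes and interleukin and chemokine genes were also set beside the ligands. No gene of the Hox clusters had a gene-proximal peak, 0 of 40, with an upper limit of 8.76%. Interleukin and chemokine genes were taken by a symbol rule that also admits receptor symbols such as *Il7r*. Of these, 2 of 70 had a gene-proximal peak (2.86%, 0.787 to 9.83%). Both intervals overlap that of the 66 ligand genes, and the low share of the ligand genes was thus also seen in other gene groups. These groups were not split by promoter CpG ratio, so whether their low shares go with CpG-poor promoters was not tested. The peak list holds no expression values, and whether the bound and unbound genes were transcribed in Ba/F3 cells was not tested. Its depth is unknown, so a gene without a peak is one at which no peak was called, not one shown to lack BAP1.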

How the data were processed

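BAP1 binding was measured by ChIP-Seq in Ba/F3 cells, in 1 anti-BAP1 and 1 anti-FLAG sample with input DNA as the control. The authors mapped the reads to mm9 using Bowtie 1.0.0 and peaks were called by MACS 1.4.2, per the submitters' processing notes and the study's methods. The deposited file gives, per the file's rows, the place of every peak on its chromosome and its name, without a score or signal. The peak threshold, the rule that joined both samples and the treatment of reads with several matches, which could affect near-identical genes such as *Bmp8a* and *Bmp8b*, are not given in the sources used here. Unmatched per-sample columns numbered 0.

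Peaks were placed on GENCODE M1 (NCBIM37, the same build) with Python 3.11.15, pandas 2.3.3 and pysam 0.24.0, leaving out 37 mitochondrial genes. Shares have 95% Wilson intervals (scipy 1.17.1), which cover counting error only. The counting was tested on simulated peaks. No replicate exists, so no p-value was computed. The alternatives were windows of 500 bp and 5 kb, the edge of the peak, 1 TSS per gene, coding transcripts only, merged peaks, other motif intervals and the omission of *Bmp1*, of *Bmp2k* or of the intracellular Fgf genes, of which those without *Bmp2k* or the Fgf genes were added after seeing the data.

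Genes named are all bound ligand genes, those within 5 kb of a peak, the farthest of each family, those on either side of the 1 kb limit and, in the pathway lists, the smaller of the bound and unbound sets. The remaining genes, such as the nearest of a family, neighbours, gene pairs, the highest CpG ratios and the SMAD and TCF/LEF genes, were named after their values were seen. The members and lists were chosen with earlier results of these data known.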

Additional observations from a re-analysis of the deposited data

How the results depend on the processing

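The same 5 ligand genes were bound with a window of 500 bp, by the edge of the peak, with 1 TSS per gene and with peaks merged within 500 bp. A window of 5 kb gave 7, adding *Fgf11* and *Gdf15*, and coding transcripts alone gave 3. Under the alternatives 89 values stayed within the 95% interval of their share or within 1.5 times the count and 8 moved. Where counts are small the intervals are wide: a window of 5 kb took the other TGF-beta superfamily ligands from 7.14 to 21.4% (3 of 14) and the antagonists from 3.45 to 6.90% (2 of 29), as did the edge of the peak for the antagonists. The share of all protein-coding genes bound moved to 38.6% (500 bp), 42.5% (5 kb) and 37.6% (1 TSS per gene). Coding transcripts alone took the Fgf share to 0, the shared peaks to 0 and the antagonist share to 0, since these rested on processed transcripts, and 1 TSS per gene also took the antagonist share to 0. The same setting took the Gdf share from 20 to 10% (1 of 10) with coding transcripts alone. It took the share of CpG-rich ligand genes from 11.9 to 7.32% (3 of 41). Both are among the values counted as staying. With 100 bp added on either side of the peaks, the E-box was found in 1 of the 5.

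No paired analysis was possible because the result comes from 1 pooled list with no test. Leaving out a replicate and a stricter peak threshold were not run, as the list has neither replicates nor a score. Depth is unknown. Families of 3 to 22 genes leave wide intervals.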
